A study of Mus musculus with 2 samples.

Results

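The stathmin family comprises 4 genes of the mouse, Stmn1, Stmn2, Stmn3 and Stmn4, chosen here by name from the 55536 genes of the GENCODE M21 quantification, of which 22028 were protein-coding. All 4 were measured in polyadenylated RNA of midbrain from B6NCrl embryos at 12.5 days of gestation, males and females mixed. Replicate 1 was a pool of 120 embryos and replicate 2 a pool of 88, and the labels give them as biological replicates. They form a single group with no treatment or mutant, so the results below are levels in this tissue, a comparison of the pools, and a comparison of the M21 and M4 annotations against which each library was quantified. Libraries were made from 10 ng of RNA with ERCC control RNAs added, and annotated genes received 29056772 expected counts (estimated numbers of reads) in replicate 1 and 37122519 in replicate 2. Both pools were whole dissected tissue, in which fewer cells of a type and less RNA per cell cannot be told apart.

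Stathmins bind dimers of alpha- and beta-tubulin, hold them out of the microtubule and promote the shrinking of microtubule ends. Phosphorylation releases the tubulin, which is how kinases of the cell cycle and of axon growth control them. Stmn1, also called stathmin or oncoprotein 18, is a soluble protein of dividing cells and of young neurons. Stmn2 (SCG10), Stmn3 (SCLIP) and Stmn4 (RB3) are neuronal and carry an additional N-terminal region whose cysteines are palmitoylated, which anchors them to Golgi-derived vesicles and growth cone membranes.

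The 4 genes share a coding exon of 192 bases that encodes part of the tubulin-binding helix. It is shown to let the members be compared base by base, 5′ to 3′ on the coding strand, with capitals in Stmn2, Stmn3 and Stmn4 for each base that differs from Stmn1 (GENCODE M21 transcripts, mouse assembly mm10).
Stmn1 (chr4:134472804-134472995, + strand): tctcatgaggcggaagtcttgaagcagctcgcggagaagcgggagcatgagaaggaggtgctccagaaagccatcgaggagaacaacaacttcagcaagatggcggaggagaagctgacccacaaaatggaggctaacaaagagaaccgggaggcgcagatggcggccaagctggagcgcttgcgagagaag
Stmn2 (chr3:8554792-8554983, + strand): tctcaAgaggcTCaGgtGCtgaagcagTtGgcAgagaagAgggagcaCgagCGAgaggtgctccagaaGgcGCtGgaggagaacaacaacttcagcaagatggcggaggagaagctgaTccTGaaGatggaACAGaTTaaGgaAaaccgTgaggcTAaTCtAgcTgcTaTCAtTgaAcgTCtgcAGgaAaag
Stmn3 (chr2:181307216-181307407, - strand): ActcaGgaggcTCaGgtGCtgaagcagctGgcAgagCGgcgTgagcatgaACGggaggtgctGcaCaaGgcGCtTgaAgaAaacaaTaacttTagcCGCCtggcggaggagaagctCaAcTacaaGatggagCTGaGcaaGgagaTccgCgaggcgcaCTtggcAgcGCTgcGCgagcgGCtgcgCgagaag
Stmn4 (chr14:66357846-66358037, + strand): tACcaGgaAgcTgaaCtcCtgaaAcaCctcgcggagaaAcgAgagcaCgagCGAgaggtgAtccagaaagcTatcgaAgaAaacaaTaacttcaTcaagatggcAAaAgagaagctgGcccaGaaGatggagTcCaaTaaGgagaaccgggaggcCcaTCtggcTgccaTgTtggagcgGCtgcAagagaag
Of the 192 positions, 111 (57.8%) were identical in all 4 genes. Stmn4 differed from Stmn1 at 40 bases, Stmn2 at 48 and Stmn3 at 51. Over the aligned coding sequence, identity ran between 70.4% (Stmn1 and Stmn3) and 74.5% (Stmn1 and Stmn2).

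The neuronal members differ from Stmn1 by a coding exon of 96 bases that lies just before the stathmin-like region. It is shown because it holds the cysteine codons of the membrane anchor, here in capitals.
Stmn2 (chr3:8541841-8541936, + strand): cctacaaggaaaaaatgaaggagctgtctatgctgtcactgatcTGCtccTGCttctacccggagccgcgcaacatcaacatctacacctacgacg
Stmn3 (chr2:181309147-181309242, - strand): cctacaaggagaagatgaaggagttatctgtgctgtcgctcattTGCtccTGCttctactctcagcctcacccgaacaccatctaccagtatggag
Stmn4 (chr14:66355586-66355681, + strand): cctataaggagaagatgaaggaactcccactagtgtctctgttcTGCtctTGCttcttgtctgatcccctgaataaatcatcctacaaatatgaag
Each exon held 2 cysteine codons, separated by a single serine codon. They were codons 22 and 24 in Stmn2 and Stmn3, and codons 20 and 22 in Stmn4. Stmn2 and Stmn3 had no further cysteine codon, Stmn4 had 4 in its whole coding sequence, and Stmn1 had 0. The coding sequence of the main transcript was 149 codons long for Stmn1, 179 for Stmn2, 180 for Stmn3 and 189 for Stmn4.

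**Figure D1:**
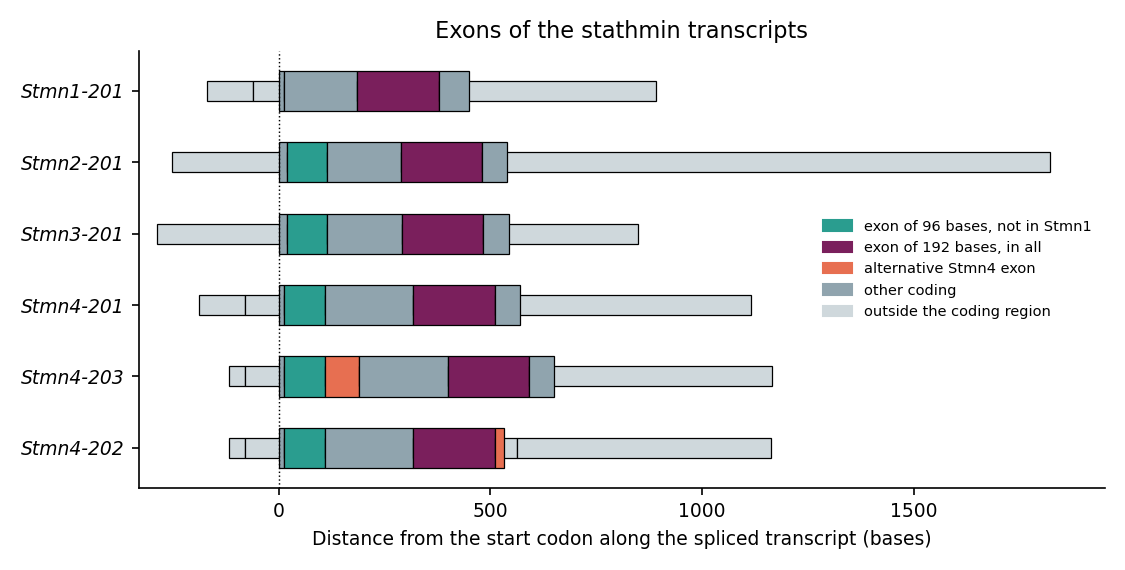
Exons of the main transcripts of the 4 genes and of the other Stmn4 transcripts above 5% of the gene, drawn to scale along the spliced transcript from the start codon (horizontal axis, bases). Tall boxes are coding and low boxes lie outside the coding region; the exon of 96 bases is missing from Stmn1-201, and the orange exons are those that set Stmn4-203 and Stmn4-202 apart from Stmn4-201.

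Stmn1 was by far the most abundant member. It had 3863 TPM in replicate 1 and 3855 TPM in replicate 2, where TPM is transcript abundance per length brought to one common total per library. The pools lay almost on each other, at 3859 ± 5.32 TPM (SD, n = 2). Stmn1 ranked 9th and 10th among protein-coding genes in replicates 1 and 2, and it took 82.5% and 82.8% of the family's summed TPM. Its 68902 counts in replicate 1 were 0.237% of all gene counts (95% Clopper-Pearson interval 0.235% to 0.239%), and its 86909 counts in replicate 2 were 0.234% (0.233% to 0.236%). Each interval comes from the counts of 1 library, so it covers counting error only and not the variation between pools. The reads carried no molecular identifiers, so copies of 1 molecule may have been counted more than once.

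The neuronal members were lower, and all 3 lay in the top 5% of protein-coding genes. Stmn3 had 339 TPM in replicate 1 and 356 TPM in replicate 2 (348 ± 12.5). Stmn2 had 332 and 299 TPM (316 ± 23.3), and Stmn4 had 148 and 143 TPM (145 ± 3.43). Stmn3 and Stmn2 stood close together, and Stmn4 was below both in each library. Stmn1 was 11.4-fold and 10.8-fold above Stmn3 in replicates 1 and 2, 11.6-fold and 12.9-fold above Stmn2, and 26.2-fold and 27.0-fold above Stmn4. Together the family reached 4681 and 4654 TPM.

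The order by TPM was Stmn1, Stmn3, Stmn2 and Stmn4 in both libraries. Stmn3 exceeded Stmn2 by 6.51 TPM in replicate 1 and by 57.2 TPM in replicate 2, a mean of 31.8 ± 35.8, so the gap between these neighbours did not exceed its own spread. The gap of Stmn2 over Stmn4, 171 ± 19.9 TPM, and that of Stmn1 over Stmn3, 3512 ± 17.8 TPM, were larger than the spread. Stmn2 held more counts than Stmn3, 11789 against 6558 in replicate 1 and 13640 against 8713 in replicate 2. The main Stmn2 transcript is also longer, at 2073 bases against 1136, and per length the order of the pair turns round.

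**Figure D2:**
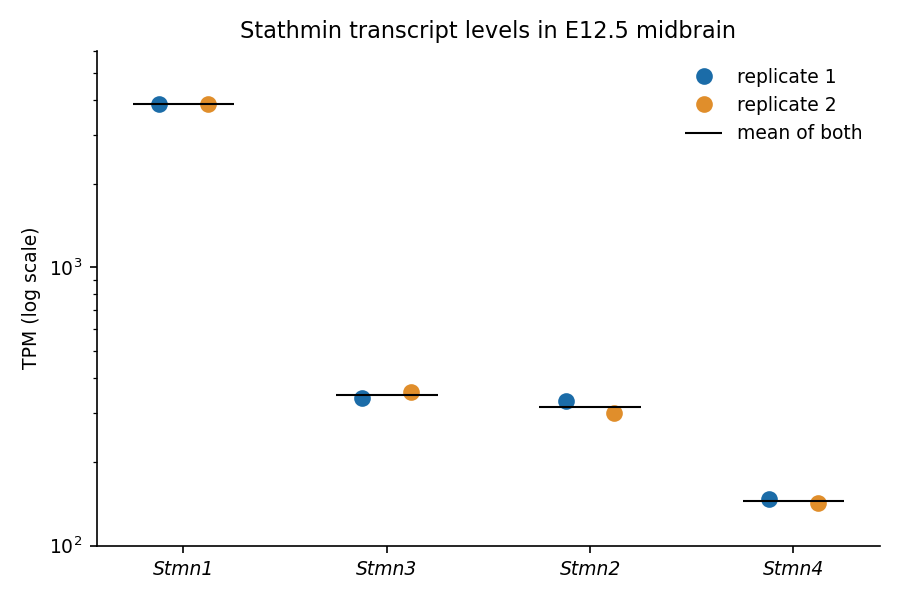
TPM of the 4 stathmin genes (logarithmic vertical axis) in replicate 1 and replicate 2, with a bar at the mean. Stmn1 stands near 3859 TPM, Stmn3 and Stmn2 lie close together near 348 and 316 TPM, and Stmn4 is lowest at 145 TPM.

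Every member was detected, with detection set at 1 TPM in both libraries, while 59.4% of all protein-coding genes passed that limit and the median of all protein-coding genes was 4.47 TPM. By TPM over both libraries, the protein-coding genes nearest to Stmn1 (distance on log2(TPM + 0.1)) were the histone gene Hist1h2ap, the thymosin gene Tmsb10 and the cyclophilin A gene Ppia, at distances of 0.09, 0.13 and 0.19. Nearest to Stmn2 were Rps21, Ssb and Trim28, all within 0.06. Nearest to Stmn3 were Eif4h, Ube2c and Dynlrb1, within 0.021, and nearest to Stmn4 were Cfdp1, Apc2 and Zfand5, within 0.01. With 2 libraries, likeness of this kind is mostly likeness of level.

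Stmn1, on chromosome 4 (ENSMUSG00000028832.11, chr4:134468320-134473843, + strand), was expressed almost entirely as a single transcript. Stmn1-201 took 98.1% of the gene's TPM in replicate 1 and 98.2% in replicate 2. The other 4 annotated transcripts each stayed below 1%, and the non-coding one took 0.652% ± 0.0922. Stmn1-202, whose coding sequence has 147 codons in place of 149, took 0.44% and 0.66%.

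Stmn1 has a near-identical copy elsewhere in the genome. Gm11223 is a processed pseudogene, a reverse-transcribed copy without introns, at chr4:69925630-69926079 on the - strand. Its 450 bases match bases 171 to 620 of Stmn1-201, which is the whole coding sequence with start and stop codon, with 1 substitution, A444G (Stmn1-201 base first, counted from the 5′ end of that transcript). The deposited model gave Gm11223 348 counts in replicate 1 and 410 in replicate 2, or 53.1 and 49.5 TPM, which is 0.505% and 0.471% of the Stmn1 counts. At 99.8% identity the division of reads between gene and copy is uncertain, and whether Gm11223 is itself transcribed was not tested. The stathmin-domain gene Stmnd1 on chromosome 13 had 0 counts in replicate 1 and 1 in replicate 2, and for a count of 0 the limit of 3 counts allows up to 0.127 TPM in replicate 1. The annotated miRNA gene Gm23634, which lies within Stmn1, had 0 counts in both libraries. It is 91 bases long and no detection limit could be computed for it, so this 0 is not a measured absence.

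Stmn2 lies on chromosome 3 (ENSMUSG00000027500.10, chr3:8509360-8561606, + strand) and spans 52247 bases, the longest of the 4. Its only protein-coding transcript, Stmn2-201, took 93.7% of the gene's TPM in replicate 1 and 95.2% in replicate 2. The rest fell mainly to Stmn2-203, a short processed transcript of 308 bases from the 3′ end of the gene, at 5.04% and 3.39% of TPM. In counts Stmn2-203 was far smaller, 0.554% and 0.367% of the gene's counts, so its share of TPM rests on few reads over a short length. The retained-intron transcript Stmn2-202 took 1.21% and 1.45%. Stmn3, on chromosome 2 (ENSMUSG00000027581.12, chr2:181306459-181314500, - strand), has a single annotated transcript and so no usage to compare.

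Stmn4, on chromosome 14 (ENSMUSG00000022044.14, chr14:66344296-66361680, + strand), was the member with the most varied transcripts, 9 annotated and 6 of them protein-coding. Stmn4-201 took 66.3% of the gene's TPM in replicate 1 and 63.6% in replicate 2, Stmn4-203 took 20.4% and 20.3%, and Stmn4-202 took 9.12% and 11.4%. Splice forms of the rat counterpart RB3 with an insertion and with a shortened end are known. The exons that set the mouse forms apart are shown because the usage values turn on them; capitals mark the stop codon.
Stmn4-203 cassette exon (chr14:66356269-66356349, + strand): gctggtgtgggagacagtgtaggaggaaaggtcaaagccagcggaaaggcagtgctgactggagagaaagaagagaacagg
Stmn4-202 late exon up to the stop codon (chr14:66358679-66358699, + strand): gagccgcctgctgcgcggTGA
The cassette exon is 81 bases long, adds 27 codons in frame and gives Stmn4-203 a coding sequence of 216 codons against 189 in Stmn4-201. The late exon is 53 bases long (chr14:66358679-66358731) and enters before the last exon. Its stop codon comes after 18 bases, which leaves Stmn4-202 with 176 codons.

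Summed over the transcripts that hold it, the cassette exon was present in 20.9% of Stmn4 TPM in replicate 1 and 20.3% in replicate 2 (20.6% ± 0.455). The late exon was present in 9.12% and 11.4% (10.2% ± 1.58), and neither exon in 70.0% and 68.4% (69.2% ± 1.13). This last class also holds shorter annotated transcripts, Stmn4-208 among them, that end before the late exon and could not show it. Stmn4-201, which spans the gene without either exon, took 66.3% and 63.6%. The pools thus lay within a few percentage points of each other for each class. Stmn4-204, the annotated transcript with both exons, was at 0 TPM and 0 counts in both libraries, although its deposited upper bounds of 4.03 and 4.51 TPM allow a small amount. The retained-intron transcript Stmn4-208 took 2.86% and 3.45% of TPM, and all non-coding transcripts of Stmn4 took 3.87% ± 0.262. Between the libraries the deposited bounds overlapped for 17 of the 19 stathmin transcripts, the exceptions being Stmn2-201 and Stmn3-201. The sources used here do not give the confidence level of those bounds, and the deposited TPM of Stmn1, Stmn2 and Stmn3 lies above its own bounds in both libraries (for Stmn1 in replicate 1, 3863 TPM with bounds of 3696 and 3753). The deposited posterior mean TPM, 3725 for Stmn1 in that library, lies within them.

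**Figure D3:**
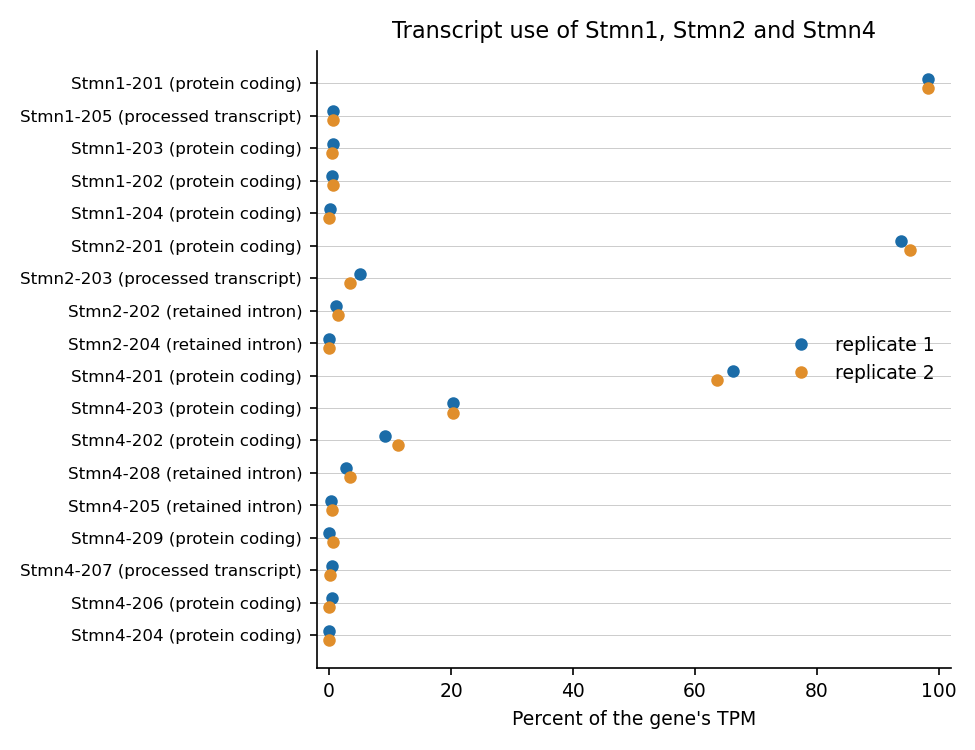
Percent of each gene's TPM taken by each annotated transcript of Stmn1, Stmn2 and Stmn4 (horizontal axis) in replicate 1 and replicate 2. Stmn1-201 and Stmn2-201 hold over 90% of their genes, while Stmn4 divides among Stmn4-201, Stmn4-203 and Stmn4-202.

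The stathmin ratio between the pools was taken from expected counts scaled by TMM, a normalization that equalises the bulk of genes. The log2 ratio of replicate 1 over replicate 2 was 0.15 for Stmn2 (95% interval 0.12 to 0.19), 0.08 for Stmn4 (0.01 to 0.15) and 0.03 for Stmn1 (0.01 to 0.04). For Stmn3 it was -0.05 (-0.09 to -9.90e-05). Stmn2, Stmn4 and Stmn1 were thus slightly higher in replicate 1, and the widest of these differences, that of Stmn2, was 1.11-fold. The interval of Stmn3 only just excluded equality and included it with DESeq2 size factors, with the M4 tables and with TMM over genes with at least 10 counts. None of the 4 reached a 2-fold ratio whose interval lay wholly to 1 side of equality, as 4.23% of the 19885 genes that had 10 or more counts did. The intervals cover counting error only, and with 1 library per pool no test between pools was possible.

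At this depth small ratios are resolved for most genes. Among the 2353 genes covered by 3916 or more counts in either library, the higher count of Stmn4, 56.8% had intervals that excluded equality and the median absolute log2 ratio was 0.06. Stmn1 and Stmn3 lay below that median, and Stmn2 and Stmn4 above it. Scaling by the ERCC spike-ins subtracts the same amount from every gene, a shift of -0.27 that puts the median of all genes at -0.28, and it turned Stmn1, Stmn2 and Stmn4 to negative ratios of -0.24, -0.12 and -0.19, with Stmn3 at -0.32.

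**Figure D4:**
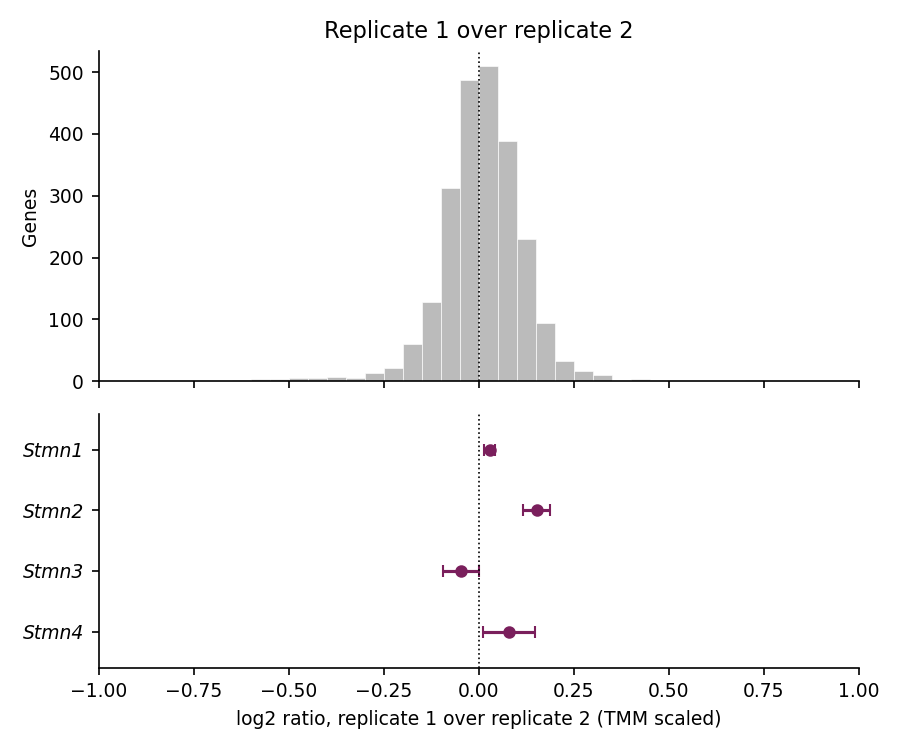
Log2 ratio of replicate 1 over replicate 2. The upper panel counts the 2353 genes at least as deeply covered as Stmn4, with values beyond the axis placed in its end bins, and the lower panel gives the 4 stathmins with 95% intervals of counting error; Stmn2 lies highest at 0.15 and Stmn3 lowest at -0.05.

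The annotation made little difference to the family. On the older M4 annotation the deposited TPM of the members was slightly higher, and the log2 ratio of M21 over M4 was -0.07 for each of the 4 genes, the SD over both libraries staying below 0.002. The median over all genes compared was also -0.07. None of the 4 changed by 1.5-fold in both libraries in one direction, as 5.4% of 14560 genes did, all of them at 1 TPM or more. The counts of Stmn2, Stmn3 and Stmn4 were identical under both annotations. M4 gave Stmn1 3.59 more counts in replicate 1 and 7.7 more in replicate 2. Under M4 the cassette exon was in 20.7% of Stmn4 TPM and the late exon in 10.5%.

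Tubulin is the stathmins' binding partner. Of 12 alpha- and beta-tubulin genes, 11 passed the detection limit, and the median was 338 TPM. Tuba1a, the main alpha-tubulin of young neurons, was highest at 7175 and 7559 TPM, and Tuba8 was lowest at 0.17 and 0.02 TPM. The neuronal beta-tubulin gene Tubb3 stood at 882 and 861 TPM. Summed stathmin TPM was 39.7% of summed tubulin TPM in replicate 1 and 37.4% in replicate 2 (38.5% ± 1.60), as RNA and not protein. On the TMM scale 8 of 11 tubulin genes had intervals wholly below equality and 2 wholly above it, where 32.3% of all tested genes and 56.8% of the deeply covered ones excluded equality. Their median log2 ratio was -0.06 against -0.01 for all protein-coding genes.

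All 14 kinases on a list of those that act on stathmins were detected. Their median of 49.4 TPM was below each stathmin, though Cdk1 and Prkaca (158 and 152 TPM) were above Stmn4 in both libraries. Cdk1, which phosphorylates stathmin in mitosis, was highest at 220 and 232 TPM, and Camk4, a calcium-dependent kinase that acts on Stmn1, was lowest at 1.76 and 2.89 TPM (1.05 and 1.39 TPM under M4). The JNK genes, whose products phosphorylate Stmn2 in neurons, were at 23.0 and 20.3 TPM for Mapk8, 35.2 and 36.0 TPM for Mapk9, and 55.3 and 55.0 TPM for Mapk10. Uhmk1, which encodes the kinase that interacts with stathmin, had 13.3 and 10.8 TPM. Of the 14, 0 reached the 2-fold limit between the pools, near the 4.23% of all tested genes, and their median log2 ratio was 0.02.

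The 8 listed regulators of neuronal stathmin RNA were all detected, with a median of 74.1 TPM. Tardbp, which encodes TDP-43, a protein known in human neurons to keep STMN2 transcripts full-length, was highest at 290.1 and 302 TPM. Rest, the repressor that keeps Stmn2 silent outside neurons, had 14.8 and 16.0 TPM, and its corepressor Rcor1 was lowest at 6.42 and 6.68 TPM. The neuronal RNA-binding protein gene Elavl4 had 190 and 171 TPM and a log2 ratio of 0.25, the widest of the 8. Of the 8, 0 reached the 2-fold limit, near the 4.23% of all tested genes, and their median log2 ratio was 0.02.

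Genes of growth cones and young neurons lay at the level of Stmn2 and Stmn3. All 14 were detected, their median was 291 TPM, and they ran from Nefm, a neurofilament gene, at 83.8 and 92.6 TPM to Map1b, a microtubule-binding protein gene, at 1027 and 1061 TPM. Under M4 Map1b stood at 472 and 461 TPM, and Tubb3 was then the highest of the list at 930 and 906 TPM. Gap43, a growth cone protein gene, stood at 272 and 282 TPM. Their median log2 ratio was 0.08, with intervals wholly above equality for 11 and wholly below for 2 (either side, 32.3% of all tested genes and 56.8% of the deeply covered ones). Of the 14, 0 reached the 2-fold limit, against 4.23% of all tested genes. The ratio of Stmn2, 0.15, was thus above this median, and that of Stmn3, -0.05, below it.

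Each of the 12 genes of dividing progenitors passed the detection limit, and their median was 210 TPM. Vim, an intermediate filament gene of radial glia, was highest at 904 and 934 TPM, and the mitotic gene Ccnb1 stood at 213 and 218 TPM. Stmn1 was higher than any gene of either list. The transcription factor Pax6 was the lowest on the list by mean TPM, though not in replicate 1. It stood at 57.2 TPM in replicate 1 and 16.9 TPM in replicate 2 (log2 ratio 1.75). Of the 12 genes, Pax6 alone reached the 2-fold limit, against 4.23% of all tested genes. The other 11 kept within that limit, and the median log2 ratio of the list was 0.02.

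**Figure D5:**
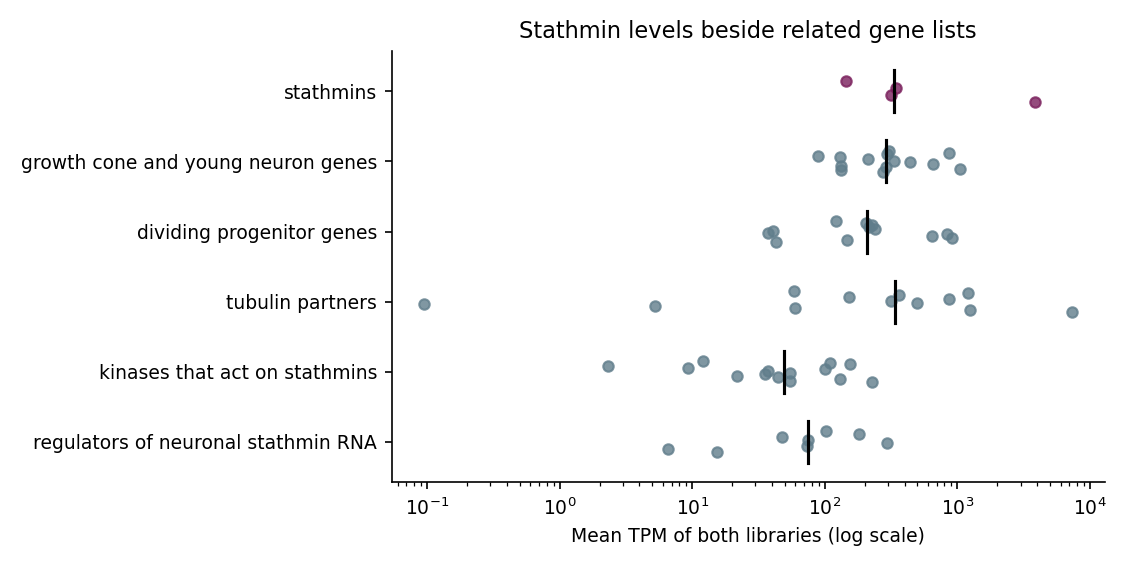
Mean TPM of both libraries (logarithmic horizontal axis) for the 4 stathmins and for the genes of 5 related lists, each point a gene and each vertical bar the median of its list. Stmn1 lies above all but Tuba1a, and the other stathmins fall among the growth cone genes.

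Markers of other cell types differed between the pools. The 5 erythroid genes summed to 13250 TPM in replicate 1 and 15603 TPM in replicate 2, and the 5 mesenchyme genes to 993 and 1409 TPM, lower in replicate 1 for both. Endothelial and microglial markers were low, at 73.9 and 81.8 TPM and at 22.7 and 23.6 TPM. All 5 midbrain markers were detected, led by Otx2 at 145 and 141 TPM. Their log2 ratios were 0.07 for Otx2 and 0.12 for Gata3, against -0.50 for En1, -0.50 for En2 and -0.26 for Pax7, each with an interval that excluded equality. Of 4 Hox genes of hindbrain and cord 0 were detected, with Hoxa4 and Hoxb4 at 0 counts in both libraries. The 3 telencephalic markers summed to 11.4 and 7.42 TPM. Of these, 2, Emx1 and Tbr1, reached the 2-fold limit, higher in replicate 1, against 4.23% of all tested genes in either direction. The part of these differences in the stathmin ratios was not tested.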

How the data were processed

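Per the manifests deposited with the tables, the authors quantified each library against GENCODE M4 and M21 on assembly mm10. Per the file headers, they deposited, per gene and transcript, an expected count (not scaled), TPM and FPKM, the percent of a gene's TPM held by each transcript, and lower and upper TPM bounds whose confidence level is not stated, treated here as a deposited score. The column names are those of RSEM, while the aligner, the counting tool and the strand setting are not given in the sources used here. Names, coordinates and sequences came from GENCODE M21. M21 was the main quantification.

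For replicate 1 over replicate 2, rounded expected counts were taken with edgeR 4.0.16 TMM factors (R 4.3.3) and exact conditional binomial 95% intervals, where either library had 10 or more counts. The procedure was tested on simulated data. A gene was counted as different at 2-fold with an interval excluding equality, and between annotations at 1.5-fold in both libraries. A pseudocount of 0.1 TPM was used for distances. Sequences were aligned with Biopython 1.88. Named were all members, their transcripts of at least 5% of the gene, copies and overlapping genes, the 3 nearest genes each, and the highest, lowest and role-bearing genes of each list. Stmn1-202, Stmn2-202, Stmn4-204 and Stmn4-208 were named after their values were seen. Members and lists were chosen with earlier results of these data known. 1 related gene is not reported here.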

Additional observations from a re-analysis of the deposited data

How the results depend on the processing

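The 2 libraries, a single stage and the lack of a second group limit what can be said of the family. Leaving out either library was also run, but with 2 libraries the remaining value always lies within 1 SD of the mean, so it tests nothing. Mean levels moved by more than that spread in FPKM (2374 for Stmn1, 194 for Stmn2, 214 for Stmn3 and 89.3 for Stmn4), as TPM over nuclear protein-coding genes alone (4868, 398, 438 and 183), and in the M4 tables (4065 TPM for Stmn1, 366 for Stmn3 and 153 for Stmn4). The first 2 of these multiply the stathmins of a library by a common factor. They are changes of unit that leave the order and the shares within each library as they were. In shares of counts, which ignore length, Stmn1 held 76.5% of the family, Stmn2 12.5% and Stmn4 3.51%. ERCC scaling, which shifts every gene by -0.27, reversed the log2 ratio of replicate 1 over replicate 2 to -0.24 for Stmn1, -0.12 for Stmn2 and -0.19 for Stmn4 and moved Stmn3 to -0.32. The ratio of deposited TPM was 0.0028 for Stmn1. The interval of Stmn3 reached past 0 with DESeq2 size factors (-0.09 to 0.0028), with the M4 tables (-0.09 to 0.00068) and with TMM over genes with at least 10 counts, an alternative added after the data were seen (-0.08 to 0.01). Genes differing between the libraries numbered 208 of 15158 tested with a minimum of 50 counts and 1429 of 19885 tested at a 1.5-fold limit. Between annotations 333 of 14560 differed at a 2-fold limit. No member was among those called between the libraries at the minimum of 50 counts or at the 1.5-fold limit. So few of all tested genes were called there that 0 of 4 is near their share. As a share of gene counts the M21 over M4 log2 ratio was -0.042 for each member. Beyond what the construction of each alternative shows, the cause was not tested.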
